A study of Homo sapiens with 6 samples.

Results

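TXNIP, the arrestin-like genes ARRDC1 to ARRDC4, and the genes MLX, MLXIP and MLXIPL of the glucose-sensing transcription factors were followed in TC-71 cells, an established human Ewing sarcoma line of wild-type genotype per the labels. These 8 genes were found by their symbols among the 48114 rows of the deposited gene table, 1 row each, and all 8 were among the 23923 rows with values high enough to be tested. The set was selected on measured values, the differences between BEZ235 and DMSO in these libraries, so its differences are given as a description with the replicate spread beside them. Treated cells received BEZ235, which blocks both PI3K and mTOR, kinases of the growth factor and nutrient pathway, for 16 h, and control cells received DMSO for 16 h. Each group had 3 RNA sequencing libraries, described in the labels as biological replicates of 1 cell line. The labels used here state no dose of BEZ235.

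TXNIP and the ARRDC proteins form the alpha-arrestin family, adaptors that carry PPxY motifs, bind ubiquitin ligases of the NEDD4 family and direct membrane proteins to endosomes. TXNIP also binds thioredoxin and promotes removal of glucose transporters from the cell surface, and so restrains glucose uptake. MLX pairs with MLXIP (MondoA) or MLXIPL (ChREBP), which sense glucose 6-phosphate, and the pairs bind carbohydrate response elements, paired E-box-like sites, at genes such as TXNIP and ARRDC4.

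The reads recovered from the deposited values numbered 186274074 to 221626548 per BEZ235 library and 184790722 to 233767211 per DMSO library. Of 23923 tested rows, 66.3% passed an adjusted p of 0.05 in limma's test between the groups, 33.1% of the tested rows being higher in BEZ235 and 33.2% lower, and the groups did not overlap for 70.9%. All 9 markers of Ewing sarcoma cells that were examined were tested, of which 4 were higher in BEZ235 and 3 lower, and they summed to 311819 to 321378 normalized counts under BEZ235 and 385997 to 411168 under DMSO, mostly CD99. Their log2 fold changes ran from -1.11 for NR0B1 to 1.26 for NKX2-2. The blood markers CD3E and HBB and the epithelial keratins KRT5 and KRT19 had 0 reads in every library. Summed over 7 markers, blood genes spanned 861 to 936 normalized counts under BEZ235 and 367 to 732 under DMSO, mostly HBA1. The 2 tested, HBA1 and LYZ, were higher in BEZ235, LYZ on 98 reads in BEZ235 libraries and 30 in DMSO libraries. Over the alternatives the count of higher blood markers ran from 0 to 2. The 6 epithelial markers, mostly MUC1, summed to 1532 to 1643 under BEZ235 and 577 to 639 under DMSO. Of the 3 tested, MUC1 and EPCAM were higher, with log2 fold changes of 1.59 and 1.06, and CDH1, at -0.69, did not pass the threshold. The 6 fibroblast markers, mostly COL3A1, summed to 39790 to 41581 under BEZ235 and 32366 to 33365 under DMSO. Of the 5 tested, 3 were higher and 2 lower. The higher were PDGFRB, COL3A1 and DCN, with log2 fold changes of 1.43, 0.49 and 0.25, and their count ran from 2 to 3 over the alternatives. The lower were COL1A1, at 5078 ± 217 in BEZ235 and 8449 ± 485 in DMSO, and LUM, at 135 ± 8.83 in BEZ235 and 863 ± 149 in DMSO. The 5 endothelial markers, mostly CLDN5, summed to 1105 to 1280 under BEZ235 and 1015 to 1397 under DMSO. The part of these genes in the results was not tested.

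Among the 8 genes, TXNIP, ARRDC4 and MLXIPL were lower in BEZ235, by 14.5-fold, 6.03-fold and 2.87-fold, and ARRDC2, MLX, MLXIP and ARRDC1 were higher, by 1.75-fold, 1.38-fold, 1.23-fold and 1.13-fold. ARRDC3 did not separate the groups. Past the threshold, 4 members were higher and 3 lower, beside 33.1% and 33.2% of all tested rows. The groups did not overlap for 7 members, 4 higher and 3 lower, beside 35.5% and 35.4% of all tested rows. At least 2-fold differences were found for 3 members, all lower, beside 12.7% of tested rows higher and 13.6% lower by as much. Nothing is read from these counts, since the genes were proposed from this comparison. The members' median log2 fold change was 0.079, against -0.00085 over all tested rows.

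**Figure D1:**
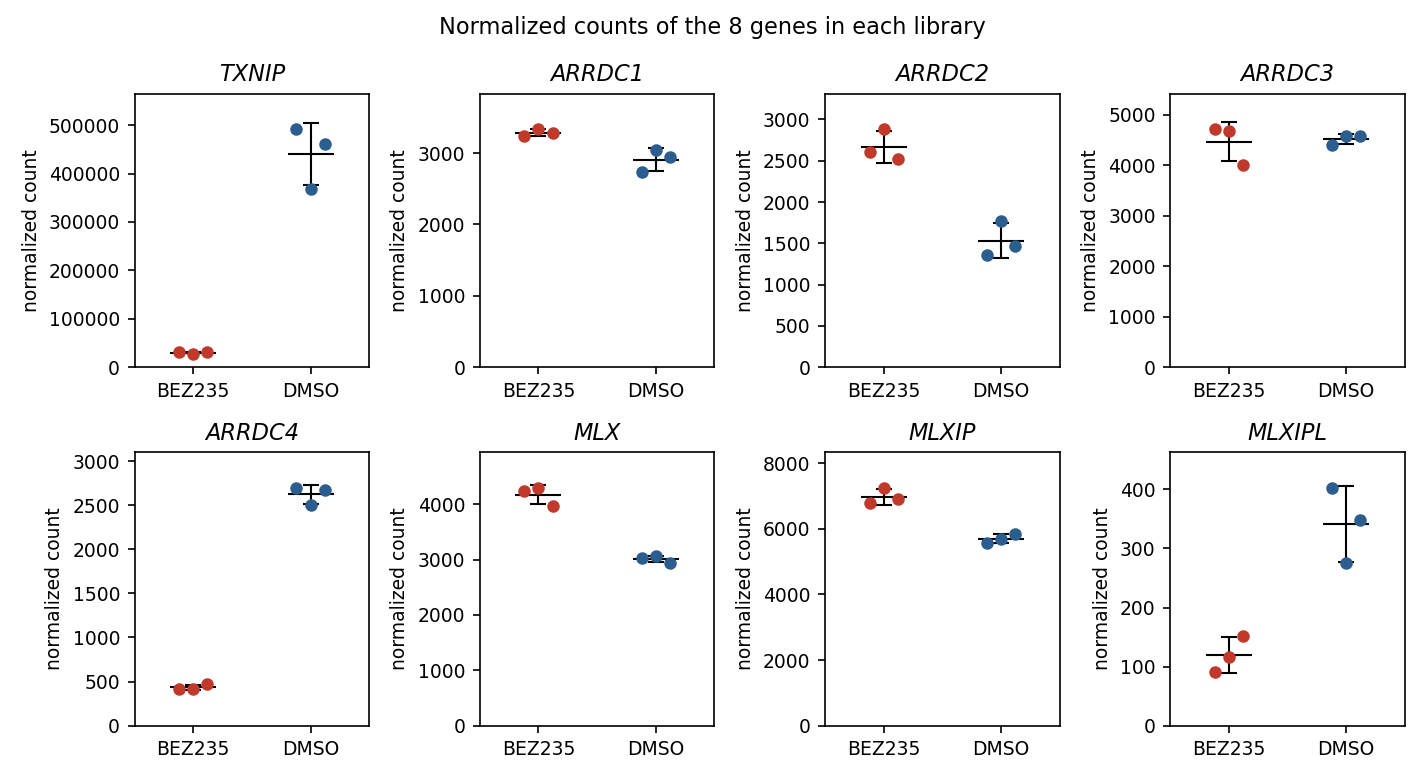
Normalized counts of the 8 genes in each library (vertical axes start at 0 and differ between panels), with BEZ235 libraries in red and DMSO libraries in blue; the black line is the mean and the bar the SD of 3 libraries. TXNIP, ARRDC4 and MLXIPL lie lower in all 3 BEZ235 libraries, ARRDC1, ARRDC2, MLX and MLXIP lie higher, and the ARRDC3 groups overlap.

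TXNIP, the thioredoxin-interacting alpha-arrestin (FASTDB gene GSHG0002887, hg38 chr1:145992435-145996579, minus strand in GENCODE v29), had 31429, 28175 and 31124 normalized counts in the BEZ235 libraries, against 491597, 368793 and 461581 in the DMSO libraries. All BEZ235 values lay far below the lowest DMSO value. The means were 30243 ± 1797 in BEZ235 and 440657 ± 64020 in DMSO (SD, n = 3 each), a log2 fold change of -3.86 (SE 0.097, 95% interval -4.07 to -3.64). It had rank 197 when the 23923 tested rows were ordered from the largest fall on the log2 scale. The relative spread was wider among DMSO libraries, where the SD was 14.5% of the mean, than among BEZ235 libraries, where it was 5.94%. These values rest on 27137 to 34351 reads per BEZ235 library and 357023 to 553068 per DMSO library. The row lies wholly inside that of NOTCH2NLA, a gene of the Notch family, which held 2510 ± 140 normalized counts in BEZ235 and 2760 ± 123 in DMSO. The NOTCH2NLA groups overlapped (limma adjusted p = 0.0929, and 0.0214 with total-count scaling), and its row held far fewer reads than TXNIP in both groups.

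Levels were compared between genes per kilobase of exon in GENCODE v29. On this scale TXNIP had 9413 ± 559 normalized counts per kilobase in BEZ235 and 137148 ± 19925 in DMSO, which gave it ranks 1085 and 84 among the 16688 tested rows with a gene model. It was the highest of the 5 alpha-arrestin genes among the 8 in every library of both groups. ARRDC4 stood last of the 5 in BEZ235 libraries, at 107 ± 7.55 per kilobase, but above ARRDC2 in DMSO libraries, at 644 ± 26.2 for ARRDC4 and 520 ± 72.5 for ARRDC2. ARRDC1 came next after TXNIP in both groups, at 2072 ± 28.7 per kilobase in BEZ235 and 1834 ± 102 in DMSO, followed by ARRDC3, at 1067 ± 94.1 in BEZ235 and 1079 ± 25.2 in DMSO. ARRDC2, at 906 ± 64.6 in BEZ235, stood close below ARRDC3 there. As shares of the summed family level, ARRDC2 had 6.25 to 7.49% and ARRDC3 7.002 to 8.54% in BEZ235 libraries. The ranges of these neighbours overlapped, as did those of ARRDC2 (0.294 to 0.505%) and ARRDC4 (0.422 to 0.516%) in DMSO libraries. Within a library the order held, with ARRDC3 above ARRDC2 in every BEZ235 library and ARRDC4 above ARRDC2 in every DMSO library. In DMSO replicate 2 the ARRDC4 and ARRDC2 shares were close, 0.516 and 0.505%. The ARRDC4 row begins well before its GENCODE v29 start, and the exon length used does not cover that part. The order of ARRDC4 and ARRDC2 in DMSO is therefore uncertain.

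Of the level per kilobase summed over TXNIP and ARRDC1 to ARRDC4, TXNIP made up 69.4% ± 1.98 in BEZ235 libraries and 97.1% ± 0.552 in DMSO libraries (SD, n = 3 each). The sum itself was 13563 ± 448 in BEZ235 and 141225 ± 19774 in DMSO. Apart from TXNIP, ARRDC4 was lower per kilobase in BEZ235 and ARRDC1 and ARRDC2 were higher. With these opposite differences, the sum of ARRDC1 to ARRDC4 was 4151 ± 153 in BEZ235 and 4077 ± 168 in DMSO. That difference was within the spread of either group. TXNIP thus made up nearly all of the family's summed level in the DMSO libraries. Since these are bulk samples, fewer cells with a transcript and less of it per cell cannot be told apart.

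**Figure D2:**
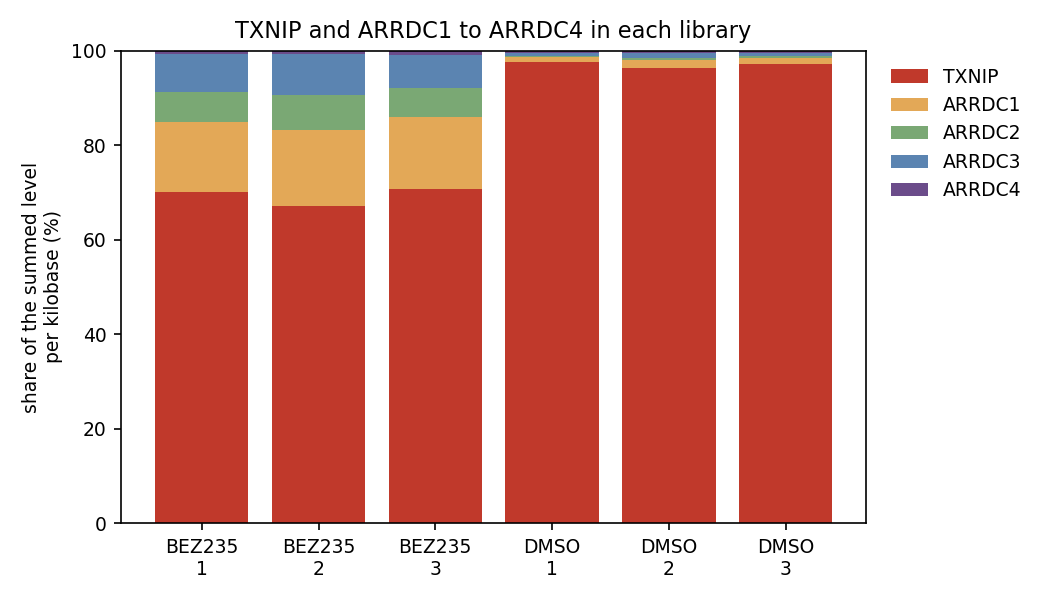
Share (%) of the level per kilobase of exon summed over TXNIP and ARRDC1 to ARRDC4, stacked, for each of the 3 BEZ235 and 3 DMSO libraries. TXNIP takes 67.1 to 70.8% under BEZ235 and 96.4 to 97.5% under DMSO, and ARRDC1 is the next largest in every library.

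ARRDC4, the alpha-arrestin nearest to TXNIP in reported function as an inhibitor of glucose uptake (GSHG0014517, chr15:97919554-97973837, plus strand), had 420, 413 and 469 normalized counts under BEZ235 and 2698, 2500 and 2667 under DMSO. The groups were far apart relative to their spread, with means of 434 ± 30.7 in BEZ235 and 2622 ± 107 in DMSO. Its log2 fold change was -2.59 (SE 0.084, 95% interval -2.78 to -2.41). The deposited row begins well before the start of ARRDC4 in GENCODE v29, at position 97960698. No other row overlaps it. Within a library, the ratio of TXNIP to ARRDC4, which does not depend on scaling between libraries, was 66.3 to 74.8 in BEZ235 and 148 to 182 in DMSO. On the log2 scale this ratio averaged 6.12 ± 0.09 in BEZ235 and 7.38 ± 0.16 in DMSO, a difference of -1.26, so that TXNIP was lower even relative to ARRDC4 in all 3 BEZ235 libraries.

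The remaining alpha-arrestins differed less between the groups. ARRDC3 (GSHG0035593, chr5:91368631-91383317, minus strand), which is reported to bring NEDD4-family ligases to integrin beta 4, had 4711, 4676 and 4012 normalized counts in BEZ235 and 4396, 4571 and 4586 in DMSO. The groups overlapped, and the log2 fold change was -0.020 (SE 0.070) with a 95% interval of -0.17 to 0.13. It was 0.042 with quantile normalization and 0.055 without BEZ235 replicate 3, the lowest library. ARRDC3-AS1, the antisense RNA whose row overlaps ARRDC3 by 2971 bases, had 48.6, 41.5 and 64.3 normalized counts in BEZ235 and 109, 102 and 110 in DMSO. All 3 BEZ235 values of the antisense row were lower, at -1.07 on the log2 scale (SE 0.253), and its counts were far below those of ARRDC3.

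ARRDC2 (GSHG0021391, chr19:18001124-18014102, plus strand), a less studied alpha-arrestin, had 2606, 2882 and 2517 normalized counts in BEZ235 and 1357, 1771 and 1471 in DMSO. Every BEZ235 library was above every DMSO library, and the log2 fold change was 0.81 (SE 0.099). An unnamed row, GSHG0022514, lies inside it over 443 bases and had a log2 fold change of 0.91 (SE 0.145). Relative to ARRDC3 in the same library, ARRDC2 had log2 ratios of -0.74 ± 0.10 in BEZ235 and -1.57 ± 0.18 in DMSO.

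ARRDC1 (GSHG0044013, chr9:137605654-137615360, plus strand), which recruits the ESCRT protein TSG101 to bud vesicles from the plasma membrane, had 3245, 3335 and 3277 normalized counts in BEZ235 and 2732, 3047 and 2947 in DMSO. The groups did not overlap, but the log2 fold change was only 0.18 (SE 0.062, 95% interval 0.04 to 0.31), with an adjusted p of 0.0259 from limma. Leaving out BEZ235 replicates 1, 2 and 3 in turn gave ARRDC1 an adjusted p of 0.0573, 0.0808 and 0.0521 in limma, which was 0.0954 and 0.0612 without DMSO replicates 1 and 3, 0.0553 without the variance trend and 0.398 with total-count scaling. ARRDC1-AS1, transcribed from the opposite strand past the end of ARRDC1 and sharing 28 bases with it, had 1250, 1216 and 1217 normalized counts in BEZ235 and 3354, 3352 and 3143 in DMSO. Its BEZ235 values were lower in all 3 libraries, a log2 fold change of -1.42 (SE 0.064). The sources used here do not say whether reads were counted by strand, so reads of ARRDC1, ARRDC3 and their antisense partners cannot be told apart where the rows overlap. ARRDC5, the remaining alpha-arrestin gene and not one of the 8, had 3 reads in 1 BEZ235 library and 0 reads in the other libraries, and was not tested.

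**Figure D3:**
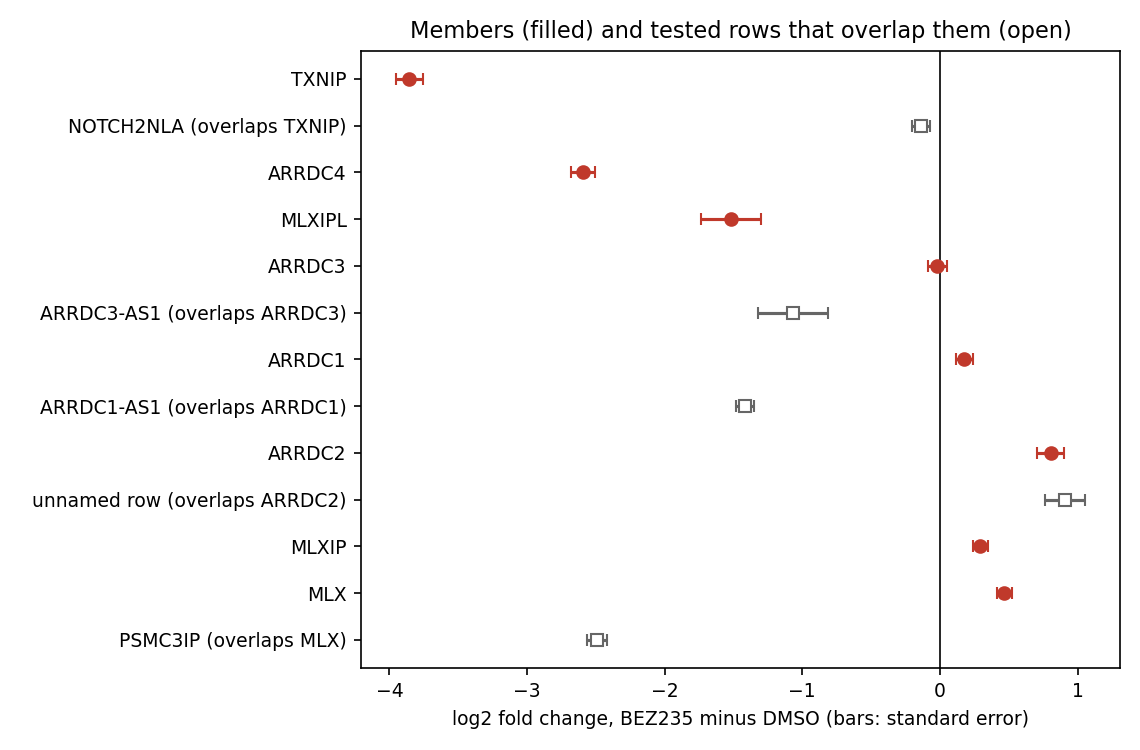
Log2 fold change (BEZ235 minus DMSO, horizontal axis) of the 8 genes (red, filled) and of the tested rows that overlap them (grey, open); bars show the standard error from limma. TXNIP at -3.86 and ARRDC4 at -2.59 lie far to the left, while ARRDC3 lies at -0.020 and the antisense rows ARRDC1-AS1 and ARRDC3-AS1 lie at -1.42 and -1.07.

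The transcription factor genes differed in direction. MLXIP, which encodes MondoA (GSHG0047889, chr12:122078746-122147344, plus strand), had 6783, 7252 and 6905 normalized counts in BEZ235 and 5573, 5677 and 5834 in DMSO, or 0.29 on the log2 scale (SE 0.053, 95% interval 0.18 to 0.41). MLX, the shared dimer partner (GSHG0018196, chr17:42567072-42573239, plus strand), had 4239, 4299 and 3974 in BEZ235 and 3032, 3058 and 2944 in DMSO, with a log2 fold change of 0.47 (SE 0.058, 95% interval 0.34 to 0.60). Both genes were higher in every BEZ235 library. PSMC3IP, a recombination factor gene, overlaps the end of MLX by 930 bases, and had 468 ± 18.9 normalized counts in BEZ235 and 2636 ± 75.4 in DMSO. Reads in that overlap may count toward either row.

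MLXIPL, which encodes ChREBP, the glucose-responsive factor best known from liver and fat (GSHG0040695, chr7:73593194-73624540, minus strand), had 90.3, 116 and 152 normalized counts in BEZ235 and 403, 275 and 348 in DMSO. The BEZ235 values were all lower, at -1.52 on the log2 scale (SE 0.218), and MLXIPL had the widest relative spread of the 8 genes, an SD of 26.0% of the mean in BEZ235 and 18.8% in DMSO. These values rest on 78 to 168 reads per BEZ235 library and 266 to 417 per DMSO library. An unnamed row inside MLXIPL held at most 12 reads in any library. Per kilobase of exon, MLXIP stood at 741 ± 25.8 in BEZ235 and 605 ± 13.9 in DMSO, and MLXIPL at 33.5 ± 8.71 in BEZ235 and 95.8 ± 18.0 in DMSO. MondoA was thus the more abundant partner transcript in both groups. The log2 ratio of MLXIP to MLXIPL reads, not corrected for length, was 5.90 ± 0.37 in BEZ235 and 4.08 ± 0.29 in DMSO, and that of MLXIP to MLX was 0.74 ± 0.06 in BEZ235 and 0.92 ± 0.06 in DMSO.

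The stretches before the transcription starts of TXNIP and ARRDC4 are shown because both genes are known to be driven by MLX-containing dimers through E-box-like sites, and those of MLX and MLXIPL for comparison, since MLX was higher in BEZ235 and MLXIPL lower. RefSeq (GRCh38.p14) had windows for all 8 genes, 11 in all. The 250 bases before the start are given 5′ to 3′ on the gene's strand, from chr1:145996580-145996829 (minus) for TXNIP, chr15:97960453-97960702 (plus) for ARRDC4, chr17:42566850-42567099 (plus) for MLX and chr7:73624523-73624772 (minus) for MLXIPL. Capitals mark the E-box CACGTG and the E-box-like CACGAG on either strand.
TXNIP: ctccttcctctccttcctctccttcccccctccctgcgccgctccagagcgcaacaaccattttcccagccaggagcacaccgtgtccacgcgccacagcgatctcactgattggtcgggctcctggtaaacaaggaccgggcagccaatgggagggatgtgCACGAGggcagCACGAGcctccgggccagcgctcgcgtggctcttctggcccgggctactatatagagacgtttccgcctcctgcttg
ARRDC4: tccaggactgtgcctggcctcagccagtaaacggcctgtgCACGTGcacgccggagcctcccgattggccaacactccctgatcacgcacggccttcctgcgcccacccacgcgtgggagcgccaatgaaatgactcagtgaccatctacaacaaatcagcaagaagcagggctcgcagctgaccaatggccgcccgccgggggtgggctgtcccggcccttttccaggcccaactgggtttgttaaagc
MLX: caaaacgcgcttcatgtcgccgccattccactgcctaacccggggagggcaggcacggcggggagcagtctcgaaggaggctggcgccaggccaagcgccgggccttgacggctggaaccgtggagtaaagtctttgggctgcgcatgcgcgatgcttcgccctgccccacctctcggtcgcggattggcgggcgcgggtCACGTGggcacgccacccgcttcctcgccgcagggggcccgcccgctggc
MLXIPL: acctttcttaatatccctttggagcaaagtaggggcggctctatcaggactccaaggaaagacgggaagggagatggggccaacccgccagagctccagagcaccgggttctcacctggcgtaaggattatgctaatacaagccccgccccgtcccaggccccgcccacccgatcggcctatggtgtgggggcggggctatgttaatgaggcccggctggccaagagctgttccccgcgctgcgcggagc

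TXNIP held CACGAG at 2 places, beginning 88 and 77 bases before the start, on the same strand and with 5 bases between them. CACGAG (or its reverse complement) occurred in 5.58% of 35116 RefSeq windows of this length and at 2 or more places in 0.208%. The pair as a single motif, 2 copies of CACGAG with any 5 bases between them, was chosen after the sequence was seen and occurred in 2 windows of 35116, those of TXNIP and KCTD5. ARRDC4 held 1 CACGTG, 210 bases before the start, and MLX held 1, 50 bases before it. CACGTG, which is its own reverse complement, occurred in 6.34% of windows. The remaining windows of the 8 genes, that of MLXIPL among them, held neither motif. A general carbohydrate response element consensus of 17 positions, present in 0.458% of windows, had no exact match in any of the 11 on either strand. The TXNIP pair, which has the same length, matched this consensus at all but 1 of its fixed positions. How often such near matches occur in other windows was not tested.

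Other motifs searched on both strands do not overlap these E-box-like sites in the windows shown. GTAAACA, a core bound by FOXO factors, lay 124 bases before the TXNIP start and in the second of the ARRDC3 windows, against 2.98% of all windows. CCAAT, bound by NF-Y, was present at 3 places in ARRDC4, 2 in TXNIP and 1 in each of MLX, MLXIP, ARRDC1, ARRDC2 and ARRDC3, and 32.0% of all windows held it at least once. These are matches of letters in a short window. MLX, which holds CACGTG as ARRDC4 does, was higher in BEZ235, and ARRDC4 lower. Whether any of these sites bears on the differences in expression was not tested.

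Genes most like TXNIP over the 6 libraries by Pearson's r of log2(normalized count + 1) were TMSB4X, EML6, ACSL4, HLA-C and TBC1D20, with r from 0.9998 to 0.9999 among the 15120 tested rows that have a symbol and a mean of at least 100 normalized counts. Those most like ARRDC4 were PSMA6, TRPS1, PPP1R14C, CAMTA2 and CASTOR2, with r from 0.9997 to 0.9999. These coefficients describe 6 libraries that fall into 2 groups, and a large difference between the groups alone gives a high r. Of these 15120 rows, 1419 had an r of at least 0.99 with TXNIP and 1372 with ARRDC4. TXNIP and ARRDC4 had an r of 0.9985 with each other, which placed ARRDC4 at rank 102 for TXNIP and TXNIP at rank 94 for ARRDC4. TMSB4X, an actin-binding peptide gene, had 19285 ± 373 normalized counts in BEZ235 and 124575 ± 12064 in DMSO, and PPP1R14C, a phosphatase inhibitor gene, had 613 ± 39.7 in BEZ235 and 3596 ± 243 in DMSO. EML6, ACSL4, CAMTA2 and CASTOR2 overlap other tested rows. TMSB4X has near-identical pseudogenes and HLA-C resembles other class I genes, so their reads may be shared.

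Connected genes were counted in 9 lists, chosen with earlier results of these data known, which held 81 distinct genes, 74 of them tested. Of these, 20 were higher and 30 lower in BEZ235 past an adjusted p of 0.05, beside 33.1% and 33.2% of all tested rows. The reported targets of MondoA or ChREBP, other than the 8 genes, were 3 higher and 7 lower of 17 tested, with a median log2 fold change of -0.13. The count of lower members ran from 5 to 7 over the alternatives. KLF10, a TGF-beta-inducible repressor, fell to 9263 ± 530 normalized counts in BEZ235 against 19204 ± 837 in DMSO, -1.05 on the log2 scale (SE 0.059, adjusted p = 5.67e-08 in limma). RGS16, a G-protein regulator, had 15229 ± 364 in BEZ235 and 48326 ± 8953 in DMSO (log2 fold change -1.65), and the malic enzyme gene ME1 had 4502 ± 150.5 in BEZ235 and 12746 ± 281 in DMSO (-1.50). Of the lipid synthesis genes, FASN, ACLY and ELOVL6 rose, by 0.63, 0.31 and 0.33 on the log2 scale, while ACACA had a log2 fold change of 0.027 (limma adjusted p = 0.73) and SCD of -0.076 (adjusted p = 0.462, and 0.00896 without DMSO replicate 2). FASN overlaps the row of SLC16A3.

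Genes that make or use glucose 6-phosphate, HK2 of the target list among them, handle the signal sensed by MondoA and ChREBP. Of 9 tested, 1 was higher and 5 lower, beside 33.1% and 33.2% of all tested rows, with a median log2 fold change of -0.26. SLC37A4, the transporter of glucose 6-phosphate into the endoplasmic reticulum, had 1479 ± 24.8 in BEZ235 and 3150 ± 384 in DMSO, and hexokinase HK2 had 4551 ± 843 in BEZ235 and 7905 ± 990 in DMSO, a log2 fold change of -0.81. ADPGK, an ADP-dependent glucokinase, rose by 0.39. SLC37A4, HK2 and ADPGK each overlap another expressed row, so their reads may be shared. Of the glucose transporters, SLC2A3 fell to 1367 ± 131 in BEZ235 against 4057 ± 148 in DMSO. SLC2A4, the insulin-responsive transporter, rose to 330 ± 35.7 in BEZ235 against 145 ± 29.1 in DMSO. SLC2A1, the cargo most often linked to TXNIP, had 2788 ± 661 in BEZ235 and 3451 ± 697 in DMSO with overlapping groups (limma adjusted p = 0.132). Its log2 fold change of -0.32 was -0.45 without DMSO replicate 1, where the adjusted p was 0.026, and -0.105 without BEZ235 replicate 3.

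In the thioredoxin system, 1 of 6 tested genes was higher and 3 were lower, beside 33.1% and 33.2% of all tested rows. The median log2 fold change of the 6 was -0.057. Thioredoxin itself, TXN, the partner that TXNIP binds, had 115097 ± 1936 normalized counts in BEZ235 and 171199 ± 8296 in DMSO, -0.57 on the log2 scale (SE 0.058, adjusted p = 6.48e-06 in limma). TXNRD1, the cytosolic reductase that recharges it, had 26732 ± 1259 in BEZ235 and 92030 ± 10511 in DMSO (log2 fold change -1.78). The mitochondrial thioredoxin gene TXN2 rose, with a log2 fold change of 0.51. An unnamed row of high counts overlaps TXNRD1 by 614 bases and had a log2 fold change of 0.59. MAP3K5, the stress kinase held by thioredoxin, had a log2 fold change of -0.20 and an adjusted p of 0.0297, which was 0.101, 0.0785, 0.056, 0.0559 and 0.0528 without BEZ235 replicates 2 and 3 and DMSO replicates 1, 2 and 3, and 0.0756 with quantile normalization.

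NEDD4-family ligases, the partners of the PPxY motifs, were 1 higher and 7 lower of 9 tested, beside 33.1% and 33.2% of all tested rows. Their median log2 fold change was -0.36. NEDD4 fell to 1724 ± 22.6 normalized counts in BEZ235 against 5494 ± 198 in DMSO, -1.67 on the log2 scale (SE 0.058, adjusted p = 1.87e-09 in limma). NEDD4L and HECW2 had log2 fold changes of -1.07 and -0.87. ITCH, the ligase reported for TXNIP, changed less, with 7921 ± 277 in BEZ235 and 9330 ± 330 in DMSO (log2 fold change -0.24; a gene named outside the fixed choice). WWP2 had a log2 fold change of 0.17 and an adjusted p of 0.0404, which was 0.0842 and 0.155 without BEZ235 replicates 1 and 2 and 0.121 and 0.11 without DMSO replicates 1 and 3, 0.088 without the variance trend and 0.429 with total-count scaling.

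Reported partners and cargo of the ARRDC proteins were 3 higher and 1 lower of 6 tested, beside 33.1% and 33.2% of all tested rows. Their median log2 fold change was 0.14. TSG101, the ESCRT partner of ARRDC1, rose to 11697 ± 540 normalized counts in BEZ235 against 7769 ± 232 in DMSO (log2 fold change 0.59). ITGB4, an integrin reported as cargo of ARRDC3, rose to 1074 ± 55.9 in BEZ235 against 454 ± 21.7 in DMSO, and overlaps the row of GALK1. PDCD6IP, the ESCRT protein ALIX, had a log2 fold change of 0.21, with an adjusted p of 0.0552 under total-count scaling. The iron transporter gene SLC11A2 fell by 0.53.

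Arrestin-fold relatives were 2 higher and 3 lower of 7 tested, beside 33.1% and 33.2% of all tested rows. Their median log2 fold change was -0.079. ARRB1, a beta-arrestin gene, rose to 10472 ± 438 normalized counts in BEZ235 against 2592 ± 273 in DMSO, 2.02 on the log2 scale (SE 0.076, adjusted p = 3.59e-09 in limma). ARRB2 had 6462 ± 201 in BEZ235 and 6829 ± 303 in DMSO with overlapping groups (adjusted p = 0.228, and 0.041 with total-count scaling). The retromer gene VPS26B rose by 0.40 and its relative VPS26C fell by 0.23 on the log2 scale. The visual arrestin genes SAG and ARR3 stood at 15.0 ± 3.10 and 96.7 ± 22.1 in BEZ235 and at 51.3 ± 15.8 and 152 ± 9.52 in DMSO. The adjusted p of ARR3, 0.0174, was 0.0616, 0.0513 and 0.0643 without BEZ235 replicates 1 and 2 and DMSO replicate 3.

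In the MYC, MAX and MLX network, the MXD1, MXD4 and MNT proteins can also pair with MLX. Of its 10 tested genes, 4 were higher and 3 lower, beside 33.1% and 33.2% of all tested rows. The median log2 fold change was near 0 (-0.0042). MXD1 fell to 915 ± 79.7 normalized counts in BEZ235 against 4227 ± 953 in DMSO (log2 fold change -2.19, limma adjusted p = 1.28e-07), while MXD4 rose to 11086 ± 185 in BEZ235 against 5406 ± 797 in DMSO. MNT had 1669 ± 106 in BEZ235 and 1750 ± 45.1 in DMSO with overlapping groups. MYCL had a log2 fold change of -2.51, MXD3 of -1.10, MGA of 0.83 and MYC of 0.45. Reported regulators of TXNIP were 4 higher and 1 lower of 8 tested, beside the same shares of all tested rows, with a median of 0.16. The count of higher members ran from 2 to 5 over the alternatives. FOXO3 rose by 0.46, while FOXO1 had a log2 fold change of 0.12 (limma adjusted p = 0.233). NFYB, an NF-Y subunit, had 3044 ± 206 in BEZ235 and 5685 ± 537 in DMSO. The other NF-Y subunits were not lower. NFYA, whose row also carries ADCY10P1, had a log2 fold change of 0.073 (limma adjusted p = 0.256). NFYC had 0.31 (adjusted p = 0.0448) with overlapping groups. Of the genes named by adjusted p from these lists, ARRB1, VPS26B, MGA, MXD3, MXD4, TSG101 and MAP3K5 also overlap another tested row. The AMP-activated kinase genes PRKAA1 and PRKAA2 had log2 fold changes of 0.20 and 0.63; their adjusted p, 0.011 and 0.0162, was 0.0629 for PRKAA1 without DMSO replicate 3 and 0.178 with total-count scaling, and 0.0633 and 0.0571 for PRKAA2 without BEZ235 replicates 2 and 3.

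**Figure D4:**
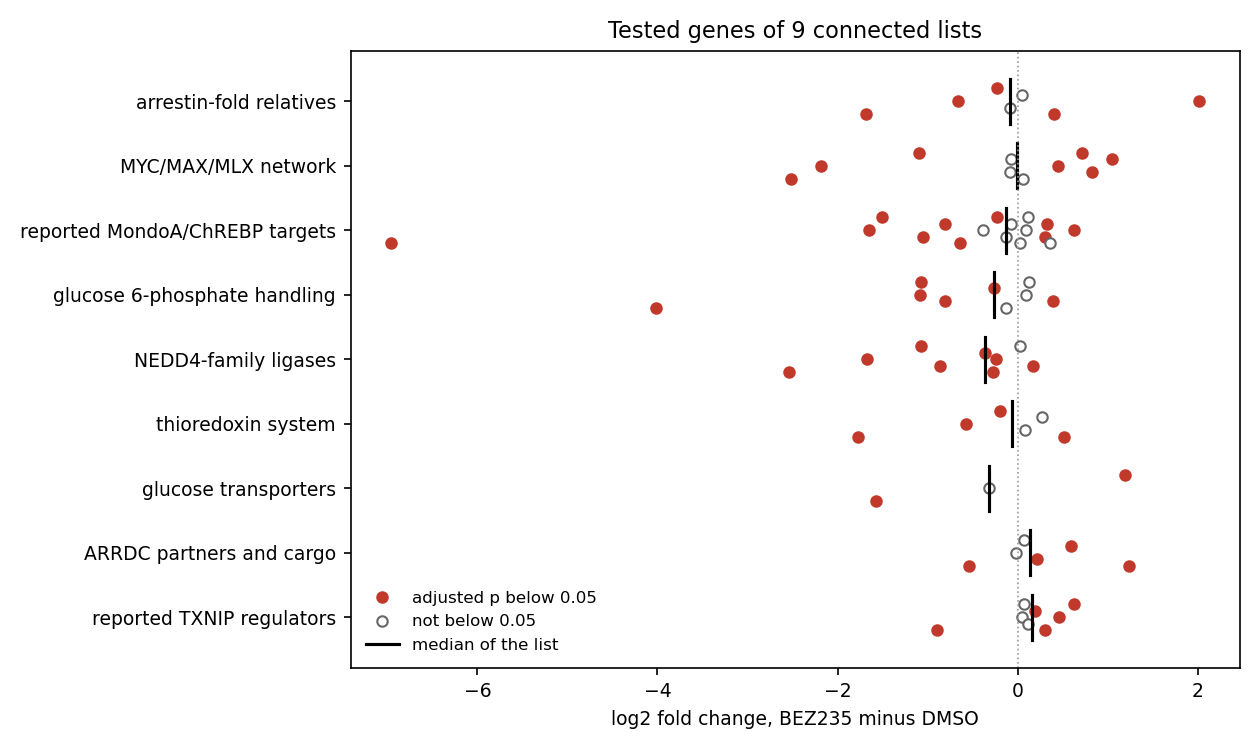
Log2 fold change (BEZ235 minus DMSO, horizontal axis) of each tested gene in the 9 connected lists (rows); filled points passed an adjusted p of 0.05, open points did not, and the black bar is the list's median. List medians lie between -0.36 and 0.16, and the point farthest left is FGF21, a fitted value resting on 1 read in BEZ235 libraries and 504 in DMSO libraries, named after its values were seen.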

How the data were processed

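The deposited table gives the authors' normalized counts (a signal) of each FASTDB gene in every library, with gene coordinates per the file headers. The submitters' processing notes name STAR 2.4.0, DESeq, SAMtools, Picard, FastQC and the build hg38 without saying what each did. Columns headed as control were assigned to DMSO, the only control treatment in the labels, and to replicates by their number. Each column held whole multiples of 1 step, which gave whole reads for 100% of values within 0.01 normalized counts; 3 reads, the limit of a count of 0, equalled 2.50 to 3.47 normalized counts. Such limits cover counting error only.

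Rows with at least 10 normalized counts in at least 3 libraries were tested with limma 3.58.1 (R 4.3.3, mean-variance trend, two-sided, Benjamini-Hochberg adjustment over all 23923 rows, threshold 0.05) on log2(normalized count + 1), a scale that understates changes of low genes. With 3 libraries against 3 an exact permutation test cannot give a p below 0.1. Only the main limma fit was run on simulated reads, in which far fewer genes changed than were called here. Alternatives were 3 scalings, 2 pseudocounts, 2 filters, no trend, the replicate block, leaving out each library, edgeR 4.0.16 and DESeq2 1.42.0. The count test edgeR on the recovered reads called 15744 rows and DESeq2 15706, against 15863 for limma.

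Members and lists were chosen with earlier results of these data known. The text names all members, rows overlapping them, up to 3 genes per list and direction by adjusted p, and the 5 genes most like TXNIP and ARRDC4. Other genes given with values are further list members, chosen after their values were seen, such as ITCH, MNT, ARRB2, SLC2A1, ACACA, SCD, FGF21, FOXO1, NFYA and NFYC. Some list genes that the rule names are not reported here. Exon lengths are unions of GENCODE v29 basic exons.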

Additional observations from a re-analysis of the deposited data

How the results depend on the processing

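Over the 17 alternatives the count of genes past the threshold ran from 14285 to 16102, and the pathway genes from 16 to 24 higher and from 25 to 33 lower. TXNIP ran from -4.08 to -3.77, ARRDC4 from -2.69 to -2.56, MLXIPL from -1.71 to -1.34, ARRDC2 from 0.71 to 0.91, MLX from 0.37 to 0.53 and MLXIP from 0.20 to 0.34 on the log2 scale, and these 6 kept their direction and their side of the threshold in all of them. ARRDC1 lost the threshold with total-count scaling (0.081) and limma without the trend (0.18), and in 5 of the 6 fits without 1 library; those 5 gave 0.13 to 0.19, and all 6 gave 0.13 to 0.21. ARRDC3 turned positive with quantile normalization (0.042), and its fits without 1 library ran from -0.060 to 0.055; the cause was not tested. Total-count scaling moved the median of all tested rows to -0.097. The replicate block gave 15917 called genes and changed no call among the 8 genes. Under it SLC2A1 passed the threshold (adjusted p = 0.0354 in limma). Deviations of same-numbered libraries correlated at -0.038, 0.023 and 0.044, and those of differently numbered libraries at -0.097 to 0.072. With 3 libraries per group, such values cannot decide whether the numbers pair the samples. Depth limits MLXIPL most, with 78 reads in its lowest library.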
